A study of Mus musculus with 4 samples.

Results

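Of 16279 autosomal SMC3 summits in mouse spermatocytes, 1044 had a summit of the meiotic cohesin subunit SMC1B nearby that passed only a loose threshold. They make up 6.41% of the autosomal SMC3 summits, and 5.87% of all 17778 SMC3 summits of the series. The sites were chosen by the deposited summit positions and the thresholds of the lists. A member is an SMC3 summit of the list at a false discovery rate (FDR) of 0.1, on chromosomes 1 to 19, with an SMC1B-LAP summit of the FDR 0.5 list within 500 bp and none of the FDR 0.1 list within 500 bp. They are called weak-SMC1B sites below, and the SMC1B-LAP summit nearest to each is its partner. For comparison, 1324 autosomal SMC3 summits had an FDR 0.1 SMC1B-LAP summit within 500 bp (shared sites), and 13911 had no SMC1B-LAP summit of either list within 500 bp (SMC3 sites without SMC1B-LAP).

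Cohesin complexes are protein rings that tie sister chromatids to each other and shape chromatin loops. SMC3 forms the ring with a second SMC protein, which is SMC1A in most cells, and with SMC1B in part of the rings of meiotic cells. A kleisin subunit closes the ring. In spermatocytes the meiotic rings lie along the chromosome axes, to which the synaptonemal complex attaches.

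All 4 libraries came from testes of C57BL/6 animals with an N-terminally LAP-tagged Smc1b construct, a tag that contains GFP. Testis cells were fixed with formaldehyde and sorted for GFP, so every library comes from cells that carry the tagged protein. The groups are SMC3 ChIP (rabbit anti-SMC3), SMC1B-LAP ChIP (goat anti-GFP) and an input for each, and there is no untagged control among them. Only the 2 ChIP libraries were analysed here, and each target has 1 library, so no value has a replicate check. How many animals were pooled is not given in the sources used here. Values are 1-base summits in mm9 coordinates with a score, the −log10 of the q-value. The read depth is unknown. The autosomal lists held 38022 SMC1B-LAP summits at FDR 0.5, of which 28500 were absent from the FDR 0.1 list and are called weak summits here. A list at so loose a threshold is expected to hold many false calls. No sequence is shown, as no mm9 genome was used, and no gene is assigned to a site.

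The rule sets the limits of these sites, and values at the limits are descriptions. Partner scores ran from 0.325 to 0.957, just below the lowest score of the FDR 0.1 list, 1.00. At the distance limit, the farthest partner lay at exactly 500 bp from its SMC3 summit at 2 sites, position 65588461 of chromosome 13 (SMC3 score 3.12) and position 12525673 of chromosome 1 (1.72). The next were position 39252057 of chromosome 11 at 499 bp, position 3009202 of chromosome 18 at 497 bp and position 93973016 of chromosome 12 at 496 bp. Just outside lay SMC3 summits with a weak summit at 501 bp (position 50736749 of chromosome 13), 503 bp (37052634 of chromosome 5), 504 bp (74535656 of chromosome 14), 506 bp (147937715 of chromosome 7) and 507 bp (70211427 of chromosome 3). Their SMC3 scores were 2.52, 3.51, 1.82, 18.8 and 1.37. The nearest FDR 0.1 SMC1B-LAP summit lay at 512 bp or more from every weak-SMC1B site, with a median distance of 67735 bp, and at 65 sites it lay within 2000 bp. One weak summit fell in the window of 1025 sites and a pair of them in that of 19. Since 34 sites shared a partner with another, the 1044 sites had 1027 different partners.

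The partners lay close to the SMC3 summit far more often than the 500 bp window requires. The median offset was 34 bp, 588 of the 1044 partners (56.3%, exact 95% interval 53.3% to 59.4%) lay within 50 bp, 257 within 10 bp, and 6 on the same base. To set these counts beside displaced positions, both SMC1B-LAP lists were moved together by 10 fixed distances, 5, 10, 20, 50 and 100 kb to either side, and the whole rule was applied again. The moved lists gave 203 to 284 sites (mean 241.9), so the observed number was 4.32 times their mean. Within 50 bp they gave 15 to 29 (mean 25.2), against 588 observed, 23.3 times as many. The median offset of the lists moved by 5 to 100 kb was 228 to 274.5 bp, near the middle of the window. Shorter shifts, of 1 and 2 kb to either side, gave more sites, 383 to 450 in all, and 40 to 43 within 50 bp. The shorter shifts were added after values were seen, and the ratios above do not include them. Of the shared sites, 1028 of 1324 (77.6%) had their FDR 0.1 partner within 50 bp, with a median of 14 bp. The close pairs showed no side: among those within 50 bp, the partner lay at the higher coordinate at 301 sites and at the lower at 281, with a median signed offset of 1 bp.

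**Figure D1:**
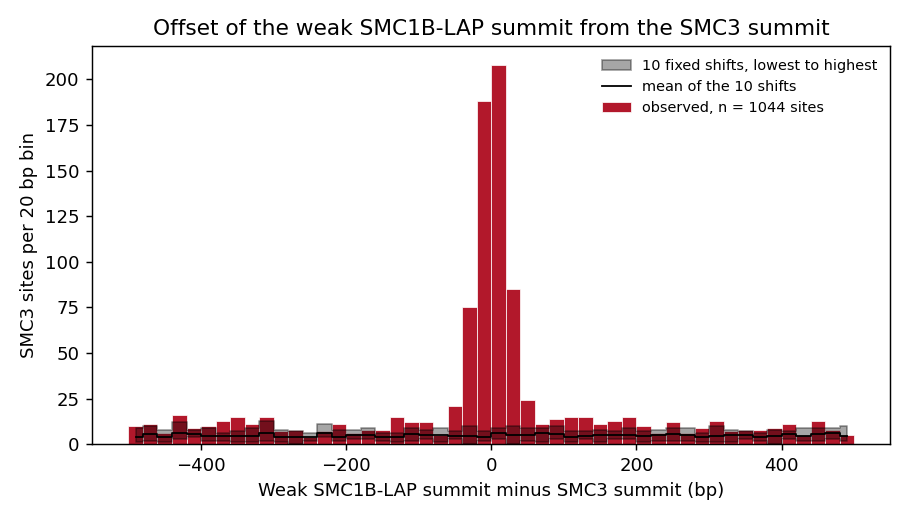
Signed distance of the weak SMC1B-LAP summit from the SMC3 summit (x axis, bp) against the number of sites per 20 bp bin (y axis), with red bars for the 1044 observed sites and the grey band and black line for the range and mean of 10 fixed shifts of the SMC1B-LAP lists. The observed sites form a narrow peak around 0, where 588 lie within 50 bp, and a low part on both sides.

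Outside the narrow peak the sites formed a low part, called the flat part here. In the 9 further bins of 50 bp, from 51 bp to 500 bp, 38 to 69 sites fell in each. The most lay at 101 to 150 bp and the fewest at 251 to 300 bp, with 47 at 451 to 500 bp. A trend over these bins was not tested. These 456 sites were more than the 186 to 259 of the 10 shifts. With shifts of 1 and 2 kb to either side, which were added after these values were seen, the same range of offsets held 340 to 410 sites and the first 50 bp held 40 to 43. In the flat part the displaced counts thus approached the observed 456, and within 50 bp they stayed far below the observed 588. Artefacts common to both libraries were not tested here, as the inputs were not analysed.

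Summits of SMC3 itself were stronger at weak-SMC1B sites than at SMC3 sites without SMC1B-LAP, and weaker than at shared sites. The median SMC3 score was 3.08 (quartiles 1.82 and 6.62) at weak-SMC1B sites, 2.20 (1.37 and 4.16) without SMC1B-LAP and 6.23 (2.68 and 15.5) at shared sites. The rule used no SMC3 score beyond the FDR 0.1 list. Of the 1044 sites, 541 (51.8%) were also in the SMC3 list at FDR 0.001, against 40.8% of all autosomal SMC3 summits, 37.0% of those without SMC1B-LAP and 72.6% of shared sites. Under the 10 shifts the sites picked by the same rule were in that list at 33.9% to 43.1%.

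This difference was tested with the autosome as the unit. The mean share over 19 autosomes was 53.1% ± 6.99 (SD) at weak-SMC1B sites and 37.0% ± 1.97 without SMC1B-LAP, and it was higher on 19 of 19 autosomes, by 16.1 ± 6.85 percentage points (exact two-sided sign-flip permutation p = 3.81e-06, the smallest it can give, adjusted over 10 tests 3.81e-05). Shared sites had 72.6% ± 6.38, and weak-SMC1B sites were lower on 18 of 19, by 19.6 points on average (exact permutation p = 7.63e-06, adjusted 3.81e-05). The exception was chromosome 18, with 63.3% at 30 weak-SMC1B sites and 61.4% at shared sites. All autosomes come from the same 2 libraries, so these p-values measure the spread between chromosomes and not between animals.

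**Figure D2:**
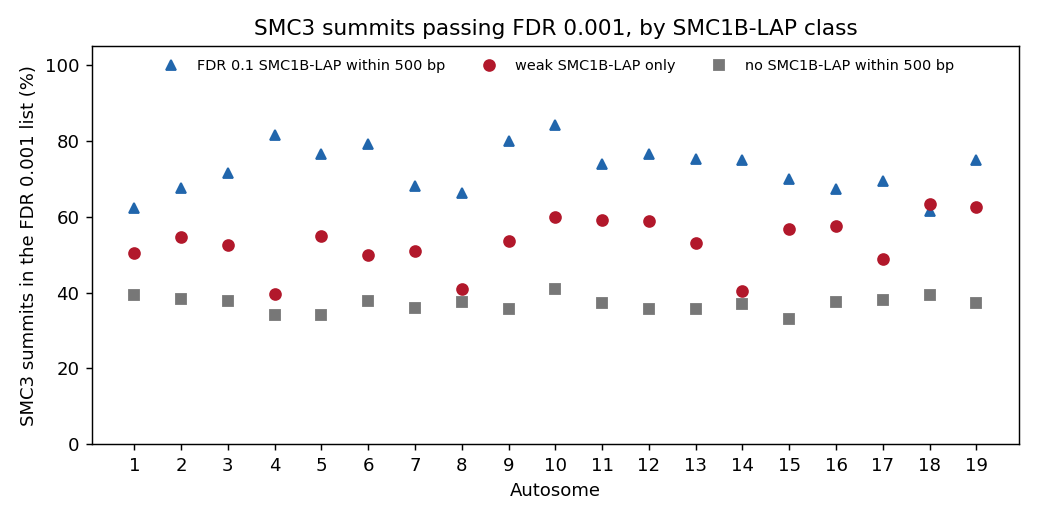
Share of SMC3 summits that are also in the FDR 0.001 list (y axis, %) on each autosome (x axis), for shared sites (blue triangles), weak-SMC1B sites (red circles) and SMC3 sites without SMC1B-LAP (grey squares). On all 19 autosomes the weak-SMC1B sites lie above the sites without SMC1B-LAP, and on 18 they lie below the shared sites.

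The share with a weak partner was higher at high SMC3 scores, with an uneven course below a score of 5. Among SMC3 summits without an FDR 0.1 SMC1B-LAP summit, 4.60% (exact 95% interval 3.99% to 5.26%) of the 4328 with scores of 1 to 1.5 had one. The share was 6.62% (5.29% to 8.16%) at scores of 1.5 to 2 and 6.00% (5.26% to 6.82%) at 2 to 3. It was 7.16% (6.27% to 8.14%) at scores of 3 to 5 and 10.1% (8.77% to 11.6%) at 5 to 10. It reached 14.8% (12.2% to 17.7%) at 10 to 20 and 24.6% (18.2% to 31.8%) among the 167 summits with scores of 20 or more. The shifts gave means of 1.23% to 1.85% in the 7 score classes, without such a rise. The observed share was 3.14 times the shift mean in the lowest class and 20.0 times in the highest, for shifts of 5 to 100 kb only. Counted over all SMC3 summits of a class the share stopped rising, at 10.8% for scores of 10 to 20 and 10.0% for 20 or more, where 59.1% of the summits already had an FDR 0.1 partner. These intervals cover the counting error of summits only.

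Offsets narrowed along the same scale. The partner lay within 50 bp at 43.2% (36.2% to 50.4%) of the 199 weak-SMC1B sites with SMC3 scores of 1 to 1.5, with a median offset of 100 bp. At scores of 1.5 to 2 the share was 32.1% (22.2% to 43.4%) of 81 sites, the lowest of all classes, with an interval that overlaps the first. It was 66.5% (59.2% to 73.2%) at 5 to 10, 88.8% (80.8% to 94.3%) at 10 to 20, and 92.7% (80.1% to 98.5%) among the 41 sites of 20 or more, where the median offset was 12 bp. Pooled over the shifts it was 9.11% to 14.0% in every class. Of the sites with scores of 10 or more, 125 of 139 had the partner within 50 bp.

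**Figure D3:**
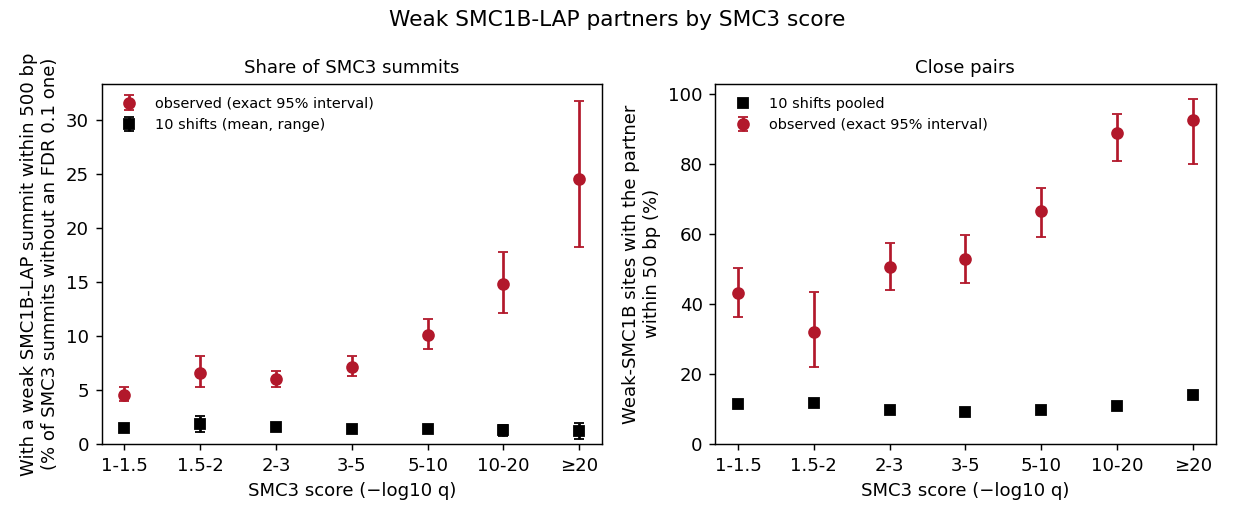
Left, share of SMC3 summits without an FDR 0.1 SMC1B-LAP summit that had a weak one within 500 bp (y axis, %), and right, share of weak-SMC1B sites whose partner lay within 50 bp (y axis, %), both by SMC3 score (x axis, −log10 q). Red circles are observed shares with exact 95% intervals and black squares are the 10 shifts; the observed shares reach 24.6% and 92.7% in the highest class.

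The 10 weak-SMC1B sites with the highest SMC3 scores ranked 45 to 140 among the autosomal SMC3 summits. The strongest lay on chromosome 12 at position 55142674, with an SMC3 score of 53.4 and the partner at 55142671, 3 bp away, with a score of 0.406. It was followed by position 64978840 of chromosome 15 (SMC3 score 47.8, offset 18 bp), position 29023112 of chromosome 4 (47.3, 28 bp), position 80607794 of chromosome 16 (45.1, 4 bp) and position 129779185 of chromosome 5 (43.4, 5 bp). Position 31705866 of chromosome 12 and position 30719968 of chromosome 19 both scored 42.4, with the partner 20 and 9 bp away. Next came position 103042643 of chromosome 2 (38.4, 20 bp), position 75386259 of chromosome 17 (35.8, 14 bp) and position 21875449 of chromosome 4 (35.2, 12 bp). All 10 partners lay within 28 bp. In 9 of the 10 the partner had the score 0.406, and the site on chromosome 17 had 0.953. Over all 1044 sites, the SMC3 score and the partner score had a Spearman correlation of 0.00448. The most common weak score, 0.406, was also that of the partner at 78.5% of all weak-SMC1B sites.

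That score dominated the partners. Of the 1044 sites, 820 (78.5%) had a partner at 0.406, the value shared by 26039 of the 28500 weak summits on the autosomes, while 173 partners scored higher and 51 lower. Partners scored above 0.406 more often than weak summits elsewhere. The share was 164 of 1027 different partners (16.0%), against 5.89% of all weak summits and 5.45% of the 27411 with no SMC3 summit within 500 bp. Over autosomes the means were 16.0% ± 4.78 and 5.39% ± 0.858 (SD, 19 autosomes), higher at the partners on 19 of 19 (exact sign-flip permutation p = 3.81e-06, adjusted over 10 tests 9.54e-06). This comparison and the others adjusted with it were chosen after values had been seen. It was not made against partners under the shifts. With the most frequent SMC1B-LAP scores left out, the rule gave 227 sites and the 10 shifts a mean of 38.4. The observed number was then 5.91 times the shift mean, against 4.32 times with all scores. How far the placement of the sites contributes to the higher partner scores was not tested. Only 3.60% of all weak summits were partners of a weak-SMC1B site.

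A higher partner score did not go with a closer partner. The partner lay within 50 bp at 85 of 173 sites (49.1%) with a partner above 0.406 and at 503 of 871 (57.7%) of the others. The autosome means were 49.1% ± 13.8 and 58.1% ± 6.53 (SD), lower in the former on 15 of 19 autosomes (exact permutation p = 0.00689, adjusted 0.00989). Sites with the higher-scoring partners also had another SMC3 summit within 10 kb more often, at 77 of 173 (44.5%) against 229 of 871 (26.3%; higher on 14 of 19 autosomes, exact permutation p = 0.00692, adjusted 0.00989). Among sites with no other SMC3 summit within 10 kb, the shares within 50 bp were 57 of 96 (59.4%) and 424 of 642 (66.0%), and the difference of the autosome means, -5.22 ± 17.0 points, did not pass (exact permutation p = 0.196, adjusted 0.218).

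The 5 sites with the highest partner scores started with position 87497842 of chromosome 1, where the partner scored 0.957 at 21 bp from an SMC3 summit of only 2.40. The next score, 0.953, was shared by 15 sites, of which those with the highest SMC3 scores are given. They lay at position 75386259 of chromosome 17 (SMC3 score 35.8), position 174540627 of chromosome 1 (30.7, offset 1 bp), position 29763451 of chromosome 12 (23.2, 17 bp) and position 168858015 of chromosome 2 (13.4, 39 bp).

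The placement of the sites relative to other SMC3 summits separated the close pairs from the flat part. In all, 306 of the 1044 sites (29.3%) had another SMC3 summit within 10 kb, against 24.2% of all autosomal SMC3 summits, 23.6% of those without SMC1B-LAP and 25.6% of shared sites. The autosome means were 28.8% ± 7.51 and 23.3% ± 3.57 without SMC1B-LAP (SD, higher on 16 of 19, exact permutation p = 0.00481, adjusted 0.0160). The difference from shared sites, 3.23 ± 9.95 points, did not pass (adjusted exact permutation p = 0.346). The excess over sites without SMC1B-LAP varied with the settings. With distances of 100 bp and 50 bp in the rule the difference turned to -3.39 and -5.64 points, and with SMC3 scores of 5 or more to -2.14. It no longer passed with a distance of 250 bp (0.625 points), the SMC3 FDR 0.001 list (0.182) or mutual nearest pairs (4.27). It was larger and passed at 1000 bp (8.0 points, adjusted exact permutation p = 0.000394) and without the most frequent SMC1B-LAP scores (15.9 points, adjusted exact permutation p = 0.000839).

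Sites with the partner within 50 bp had an SMC3 neighbour at 107 of 588 (18.2%), and sites with the partner at 51 to 500 bp at 199 of 456 (43.6%). Over autosomes these were 17.8% ± 9.25 and 42.9% ± 9.61 (SD), lower in the close pairs on 19 of 19 autosomes (exact permutation p = 3.81e-06, adjusted 9.54e-06). A small part of this contrast is built in, as a site whose partner lay nearer to another SMC3 summit has a neighbour by construction. Leaving out such sites kept 1026 sites, among them all 588 close pairs, so those left out lay at 51 to 500 bp. The contrast was not tested again without them. Against SMC3 sites without SMC1B-LAP, the close pairs were lower on 14 of 19 autosomes, by 5.50 points (exact permutation p = 0.0128, adjusted 0.0160), and the flat part was higher on 19 of 19, by 19.6 points (exact permutation p = 3.81e-06, adjusted 9.54e-06). Displaced lists also picked crowded SMC3 summits, with a neighbour at 27.2% to 41.5% of their sites under the 10 shifts and 37.6% to 44.0% under shifts of 1 and 2 kb. The low share of the close pairs was not particular to weak partners. With a distance of 50 bp in the rule, the autosome means were 18.7% at weak-SMC1B sites and 20.0% at shared sites. That difference, -1.31 points, did not pass (adjusted exact permutation p = 0.793).

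**Figure D4:**
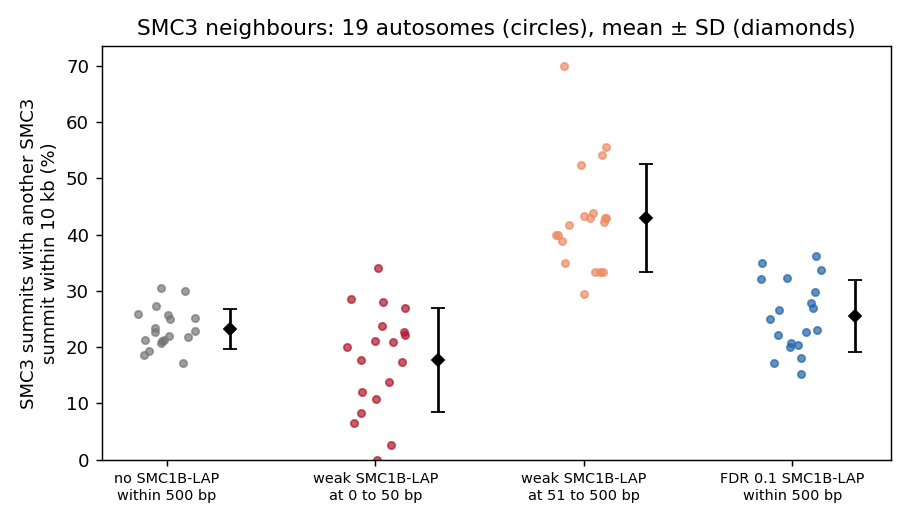
Share of SMC3 summits with another SMC3 summit within 10 kb (y axis, %) in 4 classes (x axis), with circles for the 19 autosomes and diamonds with bars for their mean and SD. Sites with the weak partner at 0 to 50 bp average 17.8% and those with it at 51 to 500 bp average 42.9%, against 23.3% without SMC1B-LAP.

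The same division was seen in the strength of SMC3. In the FDR 0.001 list were 363 of the 588 close pairs (61.7%) and 178 of the 456 others (39.0%), and the median SMC3 scores were 4.16 and 2.62. The autosome means were 62.9% ± 7.61 and 39.8% ± 11.6 (SD), higher in the close pairs on 18 of 19 (exact permutation p = 7.63e-06, adjusted 1.53e-05). The sites at 51 to 500 bp differed from SMC3 sites without SMC1B-LAP by 2.89 ± 11.1 points, which did not pass (exact permutation p = 0.270, adjusted 0.270).

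No difference in position along the chromosome passed the test. In the mouse the centromere of an autosome sits at one tip, the low end of its coordinates. The first 10% of each autosome held 131 of the 1044 sites (12.5%, against 11.8% of all SMC3 summits), or 12.4% ± 5.43 as a mean over autosomes against 11.4% ± 3.28 without SMC1B-LAP (adjusted exact permutation p = 0.476) and 11.4% ± 4.88 at shared sites (adjusted 0.615). The last 10% held 93 sites (8.91%, against 9.64% of all SMC3 summits), a mean of 9.14% ± 4.56 against 9.78% ± 2.49 without SMC1B-LAP and 9.76% ± 2.69 at shared sites (adjusted exact permutation p = 0.615 for both). The differences at both ends changed sign when the distance in the rule was 50 or 100 bp, without passing the test. The first 10% held 59 of the 588 close pairs (10.0%, exact 95% interval 7.73% to 12.8%) and 72 of the 456 sites with the partner at 51 to 500 bp (15.8%, 12.6% to 19.5%), a difference that was not tested. Under the 10 shifts it held 10.3% to 18.7% of the sites, with a mean of 14.3%.

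Crowded windows held few SMC3 summits of any class. Windows of 100 kb with more SMC3 summits than a Poisson limit allows contained 32 of the 1044 (3.07%, against 1.55% of all SMC3 summits), 1.31% of SMC3 sites without SMC1B-LAP and 2.87% of shared sites. The difference from sites without SMC1B-LAP, 1.31 ± 2.59 points over the autosomes, missed the threshold (exact permutation p = 0.0234, adjusted 0.0586). Without the most frequent SMC1B-LAP scores it was 4.74 points and passed (adjusted exact permutation p = 0.0313). Such windows held 10 of the 588 close pairs (1.70%) and 22 of the 456 other sites (4.82%), a difference that was not tested. The shifts placed 4.23% to 9.96% of their sites in such windows. The window with most weak-SMC1B sites, named after values were seen, was that of chromosome 8 from 19.7 to 19.8 Mb, with 5 of them among 15 SMC3 summits. The window from 19.9 to 20.0 Mb of the same chromosome held 4 among 18.

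Every autosome carried weak-SMC1B sites, from 24 on chromosome 19 to 93 on chromosome 1. As a share of the SMC3 summits of the autosome they were highest on chromosome 8, at 8.43% (exact 95% interval 6.64% to 10.5%), and lowest on chromosome 16, at 4.98% (3.45% to 6.92%). Those intervals overlap, so do those of all neighbours in this order, and the mean was 6.43% ± 0.917 (SD over 19 autosomes). Chromosome 8 also had the highest share under the shifts, a mean of 2.13% against 1.14% to 1.90% on the others. The partner lay within 50 bp at 40.3% of the sites of chromosome 14, the lowest share, and at 64.7% of those of chromosome 6, the highest.

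**Figure D5:**
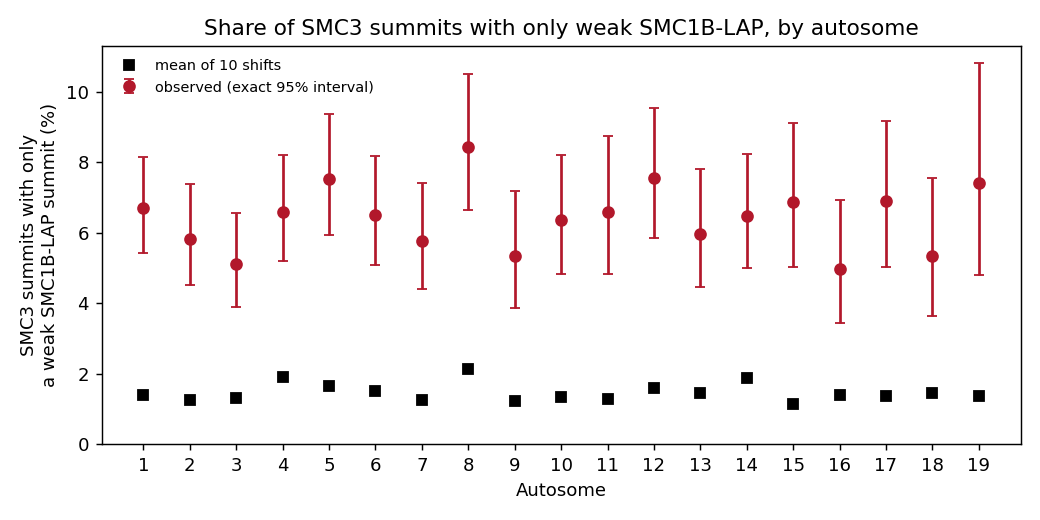
Share of SMC3 summits with only a weak SMC1B-LAP summit within 500 bp (y axis, %) on each autosome (x axis), with red circles and exact 95% intervals for the observed share and black squares for the mean of 10 shifts. The observed shares run from 4.98% to 8.43% and lie above the shift means on every autosome.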

How the data were processed

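The deposited lists give 1-base summits, each scored by the authors as −log10 of a q-value; in every list the lowest score sits just over −log10 of the stated FDR. Bowtie2 0.12.8, MACS2 and mm9 come from the submitters' processing notes. The use of the inputs and the handling of duplicate reads are not stated in the sources used. Summits were matched by position with Python 3.11.15, NumPy 2.4.6, pandas 2.3.3 and SciPy 1.17.1. Shares per autosome were compared by exact two-sided sign-flip permutation tests over 19 autosomes, adjusted by Benjamini-Hochberg over 10 tests, with a threshold of 0.05. A second family of 10 tests was chosen after values were seen. Extents ran from the first to the last summit of the 4 lists. Crowded windows passed a Poisson upper tail of 0.05 after Bonferroni correction over 24157 windows. Intervals are exact (Clopper-Pearson). The procedure was tested on simulated lists, with summits placed uniformly at random along each autosome. Those lists lack the crowding of the real summits, so they cannot check how crowding affects the comparisons with shifts. The sites and comparisons were chosen with earlier results of these data known. Regions to be named were the 10 highest SMC3 scores, the 5 highest partner scores, the 5 sites on either side of 500 bp, and the autosomes with the highest and lowest share. Genes, repeats and X and Y were left out of the comparisons.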

Additional observations from a re-analysis of the deposited data

Results flagged for a closer look

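The sex chromosomes, which lie outside the rule, carried summits of the same kind, and these were not used in the comparisons. On X, 129 of 1412 SMC3 summits (9.14%, exact 95% interval 7.68% to 10.8%) had a weak SMC1B-LAP summit and no FDR 0.1 summit within 500 bp, and 66 of them had it within 50 bp. The 10 shifts gave 16 to 63 such sites on X. On Y the count was 7 of 86 (8.14%, 3.34% to 16.1%), within the 3 to 9 that the shifts gave.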

How the results depend on the processing

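With 1 library per target no library could be left out. No paired analysis was possible because each target has 1 library and the labels number no replicates. Differences are weak-SMC1B sites minus the class named, in percentage points of autosome means. The difference in the share in the SMC3 FDR 0.001 list kept its direction and passed under all 8 alternatives run, at 10.3 to 25.0 points against sites without SMC1B-LAP and at -20.6 to -16.2 against shared sites. The number of sites was 600 at 50 bp (added after seeing the data), 657 at 100 bp, 541 with the SMC3 FDR 0.001 list, 324 with SMC3 scores of 5 or more and 227 without the most frequent SMC1B-LAP scores. The share within 50 bp was 91.3% at 100 bp, 72.8% at 250 bp and 42.5% at 1000 bp, which the width of the window moves by construction, and 67.1% with the FDR 0.001 list, 76.5% at scores of 5 or more, 61.0% with 1 SMC3 summit per 10 kb and 46.7% without the most frequent scores.

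The share with an SMC3 neighbour within 10 kb differed from sites without SMC1B-LAP by -5.64 at 50 bp (adjusted exact permutation p = 0.0413), -3.39 at 100 bp and -2.14 at scores of 5 or more, and no longer passed at 250 bp (0.625), with the FDR 0.001 list (0.182) or with mutual nearest pairs (4.27). It was 8.0 at 1000 bp and 15.9 without the most frequent scores, and passed in both. From shared sites it differed by -1.31 at 50 bp, -0.400 at 1000 bp, and 13.4 without the most frequent scores, where it passed. The share in the first 10% differed from sites without SMC1B-LAP by -1.84 at 50 bp, -1.83 at 100 bp and -0.351 at 250 bp, and from shared sites by -1.10 at 50 bp and -0.970 at 100 bp. The share in the last 10% differed by 0.416 at 50 bp, 0.714 at 100 bp and 0.243 at 1000 bp, and from shared sites by 1.14, 1.33 and 0.446, and by 0.765 at scores of 5 or more. Crowded windows differed by 4.74 without the most frequent scores, where the test passed, and from shared sites by 3.17 with that setting, 0.0177 at 250 bp, 0.450 with the FDR 0.001 list and 0.0493 with 1 summit per 10 kb. None of the sign changes passed except that of neighbours at 50 bp. Their causes were not tested. Depth is unknown, so no limit of detection can be given.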
